A study of Mus musculus with 6 samples.

Results

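The genes of the collagen chains were examined in the left ventricle of mice with and without the kinase Akt2. Members were all probe sets that name 1 gene whose symbol reads Col, a number, a and a number. The rule took 82 of 45101 probe sets and 42 of 18193 named genes, with the brightest probe set of a gene, by mean log2 signal, as its main value. It used no measured difference between the genotypes. There were 3 samples of each genotype, all left ventricles of male C57BL/6 mice between 12 and 16 weeks old. The akt2-/- mice carried a targeted disruption of akt2 that had been bred onto C57Bl/6 by repeated backcrossing. The labels describe no Cre driver or tissue restriction of the disruption, and they give the wild type mice no allele or agent. They name neither separate animals behind the samples nor littermates among the wild type mice, so p-values measure the spread between these samples only.

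Collagens are secreted proteins of the extracellular matrix in which 3 chains wind into a triple helix. Fibrillar chains (types I, III, V and others) build the fibrils that give the heart wall its tensile strength, and cardiac fibroblasts make most of them. Type IV chains form the sheet-like network of basement membranes around myocytes, capillaries and smooth muscle. Chains of the other classes decorate, link or anchor these structures. The type IV genes lie in head-to-head pairs, Col4a1 with Col4a2, Col4a3 with Col4a4, and Col4a5 with Col4a6. In bulk tissue RNA, fewer cells of a type and less RNA per cell cannot be told apart.

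Promoter sequence is shown for 5 chains that the results dwell on. They are Col1a2 and Col3a1 of the fibrils, the short chain Col8a1, and the neighbours Col4a5 and Col4a6. A difference between these neighbours was not tested. The bases lie just before the annotated gene on its own strand, from RefSeq's windows of build GRCm38.p6, in which 33 of the 42 genes had an entry. Capitals mark the motifs, which were searched on both strands and did not have to stand at a given distance. The CCAAT box was searched by the letters of its name. The TATA box was searched as TATAAA in full. For the GC box the letters were GGGCGG on either strand. Col1a2 lies at chr6:4505368-4505617 (plus strand), Col3a1 at chr1:45311288-45311537 (plus), Col8a1 at chr16:57754738-57754987 (minus), Col4a5 at chrX:141475169-141475369 (plus) and Col4a6 at chrX:141474096-141474326 (minus).
Col1a2: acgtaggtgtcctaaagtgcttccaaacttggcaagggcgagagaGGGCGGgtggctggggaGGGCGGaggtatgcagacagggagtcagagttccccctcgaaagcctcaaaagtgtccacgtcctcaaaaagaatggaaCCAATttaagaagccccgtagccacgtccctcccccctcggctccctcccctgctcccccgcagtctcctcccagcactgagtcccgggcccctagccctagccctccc
Col3a1: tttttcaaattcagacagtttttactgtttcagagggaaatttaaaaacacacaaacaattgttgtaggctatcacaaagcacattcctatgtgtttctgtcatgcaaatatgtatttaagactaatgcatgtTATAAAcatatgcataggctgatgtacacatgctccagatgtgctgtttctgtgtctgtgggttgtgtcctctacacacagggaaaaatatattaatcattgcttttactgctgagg
Col8a1: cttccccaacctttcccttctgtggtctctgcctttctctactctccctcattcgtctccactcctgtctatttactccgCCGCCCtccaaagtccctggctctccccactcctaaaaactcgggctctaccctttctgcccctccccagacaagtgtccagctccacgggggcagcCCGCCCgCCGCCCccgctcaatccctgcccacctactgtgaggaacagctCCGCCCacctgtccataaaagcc
Col4a5: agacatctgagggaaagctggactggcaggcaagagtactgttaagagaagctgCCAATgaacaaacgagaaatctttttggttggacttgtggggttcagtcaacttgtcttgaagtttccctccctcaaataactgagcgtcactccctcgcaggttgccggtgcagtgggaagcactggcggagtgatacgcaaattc
Col4a6: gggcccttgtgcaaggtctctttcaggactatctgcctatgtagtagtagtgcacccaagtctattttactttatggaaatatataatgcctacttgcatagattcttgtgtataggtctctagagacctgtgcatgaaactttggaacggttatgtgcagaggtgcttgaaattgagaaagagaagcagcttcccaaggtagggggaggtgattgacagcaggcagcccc
The Col1a2 window held 1 CCAAT box and 2 GC boxes, that of Col3a1 held 1 TATA box, and that of Col8a1 held 4 GC boxes. The Col4a5 window held 1 CCAAT box, and that of Col4a6 held none of the 3 motifs. Among all 32851 windows, cut to 250 bases, 33.8% held a CCAAT box, 12.4% a TATA box and 32.7% a GC box. For the length of Col4a5 all windows were cut to their first 201 bases, which leaves out those nearest the start. Of these, 28.6% held a CCAAT box, 9.18% a TATA box and 24.8% a GC box. Cut in the same way to the first 231 bases, the length of Col4a6, the shares were 32.3%, 11.8% and 30.0%. A match describes the letters of the window and is no measured site.

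The 6 values of a probe set are MAS5 signals on a linear scale, 1 array for each sample. Akt2 itself, the check of the labels, had signals of 477.8, 394.5 and 255.4 in the 3 knockout arrays and 2362.6, 2561.3 and 2505.4 in the wild type arrays. In both genotypes the array of replicate 1 was unlike the rest. The 18S ribosomal RNA controls of these arrays had median signals of 57275.2 and 82330, against 152.7 to 446.7 elsewhere. The poly-A spike-in controls had medians of 54.2 and 57.0, against 456.9 to 825.8, and the array medians were 134.3 and 167.2, against 88.4 to 91.2. The word batch stands for this split, which no label gives, and each main result is also given for the replicate 1 pair and for replicates 2 and 3. Myl2 and Myl3, light chains of the ventricular myosin, were bright on every array, with means of 83595.8 and 84165.1 in the knockout. In the wild type the means were 110537.5 and 105736.2. Of 10 tested cardiomyocyte markers, 9 had a log2 difference below 0 and 1 above (median -0.11). The median was -0.66 in the replicate 1 pair against 0.17 over replicates 2 and 3. At a limma adjusted p under 0.05, 10 of 10 were higher in the replicate 1 arrays, against 18.9% of all genes. All 4 atrial markers were tested too and were above 0 in the knockout, with a median log2 difference of 0.54 and none with an adjusted p under 0.05. Myl7, Sln, Myl4 and Nppa had 1.10 (SE 0.926), 0.67 (SE 0.804), 0.41 (SE 0.662) and 0.13 (SE 0.207). Myl7 was at 1861.2, 1320.5 and 635.2 in the knockout and 1101.2, 96.5 and 1246.3 in the wild type, so that wild type replicate 2 was far below the rest. The part of atrial tissue or of cardiomyocytes in the collagen values was not tested.

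Of the 42 collagen genes, 23 passed the filter on low signals and were tested, with 36 of the 82 probe sets. In 21 of these genes the mean was above the filter in both genotypes. Col11a2 was above it only in the knockout and Col4a6 only in the wild type, so their place among the tested genes itself leaned on a difference. Differences are knockout minus wild type on the scale log2(signal + 21.7), which understates the change of dim chains. They were fitted with limma across all genes, adjusted by Benjamini-Hochberg, and 0.05 was the threshold.

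No collagen gene passed that test. The count was 0 of 23 genes, as it was for 0% of all 11075 genes, and 0 of 36 probe sets, as for 0% of all 22519 probe sets. With the batch as a block it was also 0 of 23, where 0.00903% of all genes passed (1 gene), and with the replicate number as a block it was 0 of 23, where 0% passed. The brightest probe set of Akt2, the disrupted gene, did not pass either, with a log2 difference of -2.69 (SE 0.249). Its limma adjusted p over all probe sets was 0.18, 0.0877 with the batch block and 0.343 with the replicate block. A loss of that size thus did not reach the threshold in these fits. At an unadjusted limma p under 0.05, 1 collagen gene was lower, Col4a6, and 0 were higher, against 1.2% and 0.966% of all genes. With the batch block 2 were lower, Col4a6 and Col8a1, and 0 higher, against 4.33% and 3.98%. Col4a6 passed the filter through the wild type alone, so its place in both counts gives no support for a difference. In all, 14 of 23 genes (60.9%) had a log2 difference above 0, against 53.3% of all genes. Their median was 0.09, against 0.01 over all genes, with -0.15 in the replicate 1 pair against 0.16 over replicates 2 and 3.

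**Figure D1:**
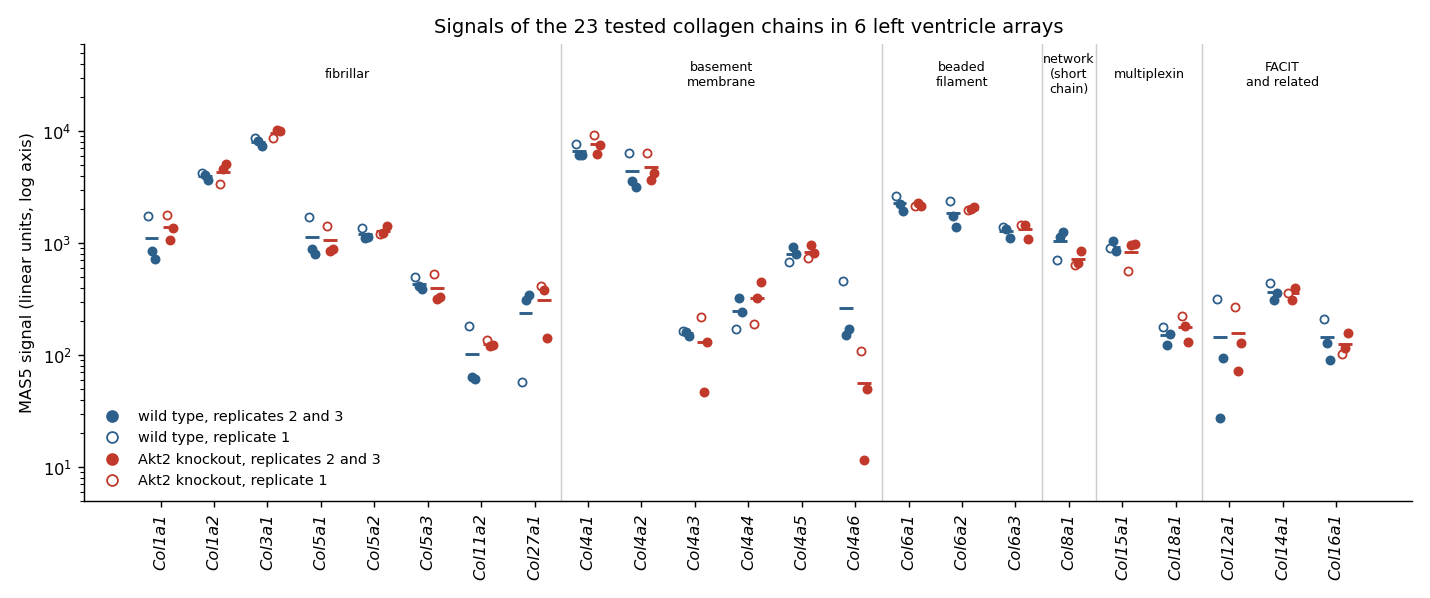
Signal of the brightest probe set of each of the 23 tested collagen genes in the 6 arrays, on a log axis, with genes grouped by collagen class; points are arrays (open: replicate 1) and bars are the means of the 3 arrays of a genotype. The points of Col4a6 in the 3 knockout arrays lie below all 3 wild type points, while most other chains overlap.

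The fibrillar chains showed no difference between the genotypes that passed the test. With their brightest probe sets, the type I and III chains had lower values in the replicate 1 pair than in replicates 2 and 3. That difference between the batches had a limma adjusted p under 0.05 for 0 of the 23 tested collagen genes. Of all 23 tested collagen genes, 13 had opposite signs in the 2 batches, though Col1a1 and Col3a1 did not. The share of such genes among all genes was not computed, so the count shows nothing particular to the collagens. Of 8 tested fibrillar genes, 6 had a value above 0 and 2 below, with a median log2 difference of 0.18. The median was -0.09 in the replicate 1 pair against 0.28 over replicates 2 and 3. Summed over the 8 genes, the signal was 17558.6, 18781.3 and 19338.4 in the knockout arrays and 18438.8, 15834.0 and 14432.8 in the wild type arrays, in the order of the replicate numbers. The groups thus overlapped, through the replicate 1 arrays alone. The median was 0.09 without the filter on low signals, where 11 genes entered, and 0.10 with the stricter filter.

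Col1a1 encodes the alpha1 chain of type I collagen, the main collagen of the cardiac interstitium. Its signals were 1780.2, 1066.7 and 1352.7 in the knockout and 1756.5, 850.0 and 721.0 in the wild type. The replicate 1 arrays were the highest of each genotype and nearly equal, and the other knockout arrays lay above the other wild type arrays. The log2 difference was 0.41 (SE 0.365, 95% interval -0.46 to 1.28), with 0.02 in the replicate 1 pair against 0.60 over replicates 2 and 3.

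Col1a2, the alpha2 chain that pairs with it, had 3353.2, 4618.7 and 5072.4 against 4240.4, 4073.9 and 3659.3. Here knockout replicate 1 was the lowest array of all 6, and knockout replicates 2 and 3 were the highest. The log2 difference was 0.10 (SE 0.204), with -0.34 in the replicate 1 pair against 0.32 over replicates 2 and 3.

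Col3a1, the chain of type III collagen that forms fine fibrils with type I, had 8715.6, 10189.5 and 9999.4 in the knockout and 8626.4, 8109.1 and 7340.8 in the wild type. It was the only tested collagen gene whose 3 knockout arrays all lay above the 3 wild type arrays, 1 of 23, where 3.9% of all genes did so. The nearest arrays, those of replicate 1, were almost level. The mean was 9634.8 ± 802 (SD, n = 3) against 8025.4 ± 647 (SD, n = 3), a log2 difference of 0.26 (SE 0.161, 95% interval -0.12 to 0.64). Its limma adjusted p was 1, and 0.611 with the batch block.

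Type V chains regulate the diameter of type I fibrils. Col5a1 had 1431.5, 857.1 and 884.1 in the knockout against 1712.6, 890.4 and 793.1. Col5a2 had 1197.7, 1227.0 and 1430.1 against 1368.7, 1117.1 and 1128.1. Col5a3 had 529.2, 319.4 and 333.8 against 496.4, 416.9 and 386.9. All 3 overlapped between the genotypes, and the log2 differences were -0.05 (SE 0.346), 0.09 (SE 0.17) and -0.16 (SE 0.234). In replicates 2 and 3 they were 0.05, 0.23 and -0.28.

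The remaining tested fibrillar chains were dim or uneven. Col11a2, a chain of the minor fibrillar type XI, had 135.6, 119.8 and 123.6 against 180.5, 63.7 and 60.7, a log2 difference of 0.39 (SE 0.355). Wild type replicate 1 was the highest array and the other wild type arrays the lowest. Col27a1, another minor fibrillar chain, had 415.6, 383.1 and 142.3 against 57.3, 312.9 and 342.9, a difference of 0.53 (SE 0.662). That value turned from 2.47 in the replicate 1 pair to -0.44 in replicates 2 and 3, since wild type replicate 1 was the lowest array. The other Col27a1 probe set, below the filter, had -0.03.

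**Figure D2:**
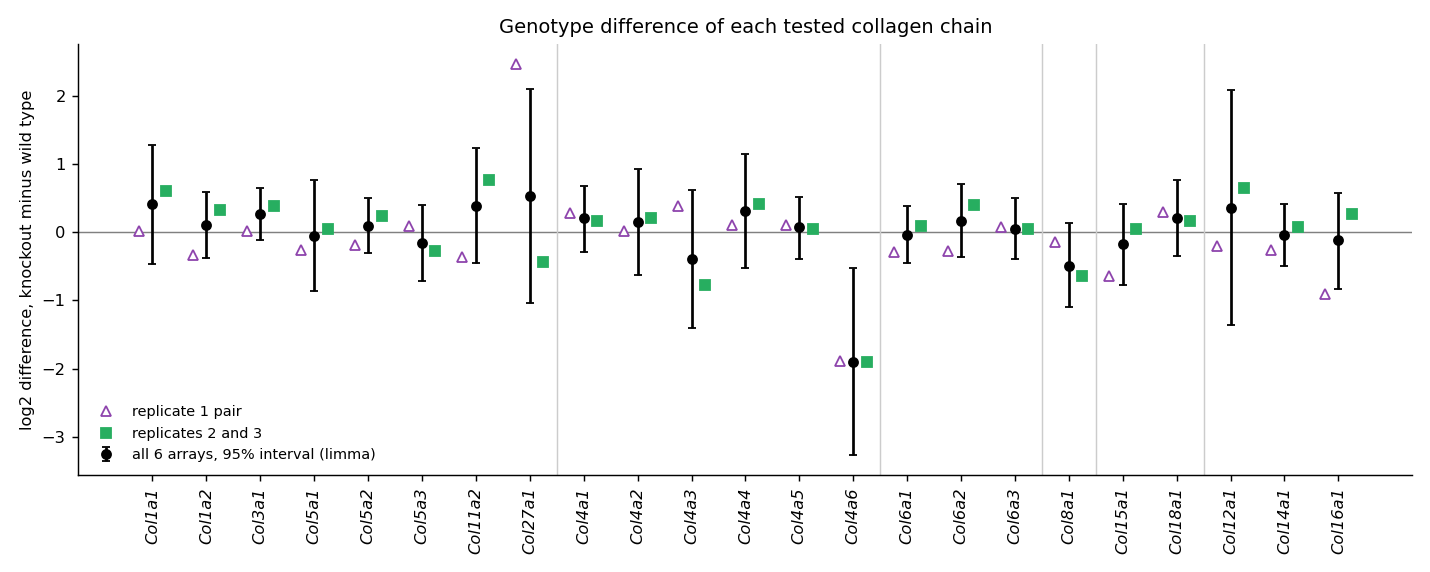
Log2 difference, knockout minus wild type, of each tested collagen gene: black points are all 6 arrays with the 95% interval of limma, open triangles the replicate 1 pair and squares replicates 2 and 3. The interval leaves out 0 for Col4a6 alone, a gene above the filter in the wild type only. For Col1a1, Col1a2 and Col3a1, as for several other chains, the squares lie above the triangles.

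In replicates 2 and 3 alone, 8 of the 23 tested genes had an unadjusted limma p under 0.05. The 5 that were higher were Col1a1, Col1a2, Col3a1, Col11a2 and Col6a2 (21.7% of the 23, against 5.12% of all genes), and the 3 that were lower were Col4a6, Col5a3 and Col8a1 (13% against 4.72%). Col11a2 and Col4a6 had each passed the filter through 1 genotype alone. Counted over genes above it in both genotypes, a count added after the data were seen, 4 of 21 collagen genes were higher and 2 lower, against 5.05% and 4.44% of all such genes. None had an adjusted p under 0.05 in that fit, nor did any of all genes (0%), and the lowest adjusted p among collagens was 0.384. The replicate 1 pair did not share the higher values: Col1a1 and Col3a1 had 0.02 and 0.01 there, and Col1a2, Col11a2 and Col6a2 had -0.34, -0.36 and -0.27. The difference between the batches in the genotype effect, an interaction term in limma, had an adjusted p under 0.05 for 0 of 23 genes, against 0.569% of all genes. Its unadjusted p was under 0.05 for 6 of 23, against 20.5% of all genes.

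Among the type IV chains, the knockout arrays of Col4a6 lay below its wild type arrays, and those of its head-to-head neighbour Col4a5 did not. This contrast was not tested. Of 6 tested genes 4 had a value above 0 and 2 below, with a median log2 difference of 0.11, and medians of 0.11 in the replicate 1 pair against 0.10 over replicates 2 and 3. Set beside the fibrillar medians, it was higher in the replicate 1 pair (0.11 against -0.09) and lower in replicates 2 and 3 (0.10 against 0.28). It was 0.11 without the filter and 0.15 with the stricter one, both above the fibrillar medians of 0.09 and 0.10. The order of these classes therefore changed with the batch and the filter, and their difference was not tested.

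Col4a6 encodes the alpha6 chain, which joins alpha5 chains in certain basement membranes such as that of smooth muscle. Its signals were 108.7, 11.7 and 50.0 in the knockout and 460.4, 150.4 and 172.2 in the wild type. All knockout arrays lay below all wild type arrays, and within each genotype the replicate 1 array was the highest. Since Col4a6 was above the filter in the wild type alone, its place among the tested genes leaned on this order, and the 3.56% of all genes that had it is given as background only. The mean was 56.8 ± 48.9 (SD, n = 3) against 261.0 ± 173 (SD, n = 3), a log2 difference of -1.90 (SE 0.58, 95% interval -3.27 to -0.52), and it was as large in the replicate 1 pair (-1.89) as in replicates 2 and 3 (-1.90). The unadjusted limma p was 0.0141, and 0.000584 with the batch block. Adjusted over all genes it was 1, and 0.394 with the batch block, so it did not pass.

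These are low signals. The lowest, 11.7 in knockout replicate 2, lies under the 20th percentile of that array, 18.4. The second Col4a6 probe set, which was below the filter, had 19.9, 34.4 and 11.8 against 177.3, 43.5 and 54.0, with the same order of the genotypes and a log2 difference of -1.22 (SE 0.473). Its highest knockout array and its lowest wild type array were close. Without knockout replicate 2 the brighter probe set had -1.38, and without wild type replicate 1 it had -1.43.

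Col4a5, the alpha5 chain, had 736.6, 972.1 and 811.6 against 683.0, 926.2 and 794.4. The genotypes interleaved, with a log2 difference of 0.07 (SE 0.192, 95% interval -0.39 to 0.52) and 0.15 for its other probe set. Its interval and that of Col4a6 do not overlap, a comparison of different probe sets for which no test was run. Col4a6 passed the filter through the wild type alone, so the gap between the intervals gives no support for a difference between the neighbours.

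The major chains of cardiac basement membranes, Col4a1 and Col4a2, were close in the genotypes. Col4a1 had 9288.8, 6309.0 and 7481.9 against 7665.9, 6133.3 and 6160.5. The log2 difference was 0.20 (SE 0.205, 95% interval -0.29 to 0.68), with 0.15 for its other probe set. Col4a2 had 6372.1, 3676.9 and 4206.3 against 6341.7, 3588.2 and 3193.7, a difference of 0.15 (SE 0.327). With the brightest probe set of both genes each knockout array was above the wild type array of its number, and the groups overlapped. The other Col4a1 probe set broke this order in replicate 2, with 4198.5 in the knockout against 4232.7. The labels do not say what the numbers stand for.

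Col4a3 and Col4a4 encode chains known from the kidney and inner ear. Col4a3 had 217.7, 47.3 and 132.1 against 162.6, 162.1 and 148.1, a log2 difference of -0.39 (SE 0.426). The knockout arrays lay on either side of the wild type arrays. Its other probe set, which was below the filter, had the opposite sign, at 0.39 (SE 0.694). Col4a4 had 187.8, 322.0 and 453.6 against 172.9, 326.6 and 243.4, a difference of 0.31 (SE 0.351), while its other tested probe sets had -0.03 and -0.48.

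**Figure D3:**
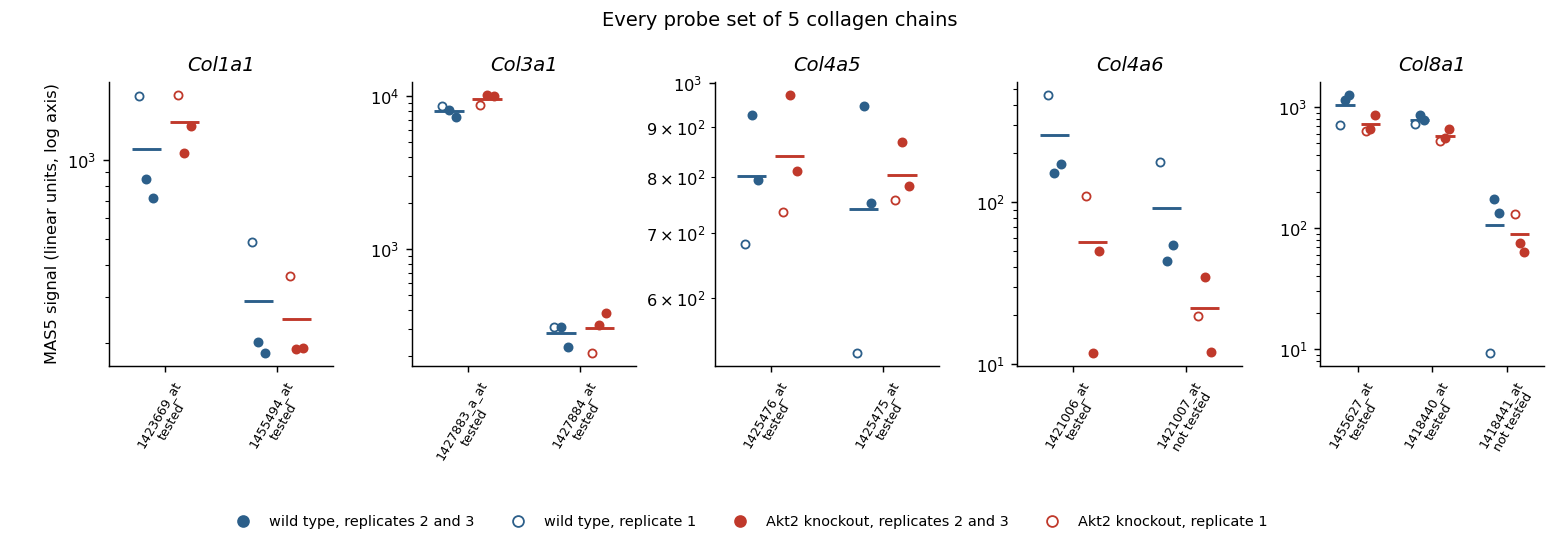
Signals of every probe set of Col1a1, Col3a1, Col4a5, Col4a6 and Col8a1 in the 6 arrays, on log axes that differ between panels; points are arrays (open: replicate 1), bars are means of a genotype, and labels give the probe set and whether it was tested. Both Col4a6 probe sets have all knockout points under the wild type points, and the order of the genotype means turns between the probe sets of Col1a1.

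Col8a1, a short chain of type VIII collagen found in vessel walls, was lower in the knockout without passing the test. Its brightest probe set had 632.7, 663.3 and 856.8 against 705.6, 1138.4 and 1260.6. Only wild type replicate 1 fell among the knockout arrays. The log2 difference was -0.49 (SE 0.26, 95% interval -1.10 to 0.13), with -0.15 in the replicate 1 pair against -0.65 over replicates 2 and 3. The unadjusted limma p was 0.104, and 0.0263 with the batch block, where the adjusted p was 0.586.

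The next Col8a1 probe set had 526.8, 551.1 and 664.0 against 722.0, 851.7 and 781.9, with no overlap. Its log2 difference was -0.43 (SE 0.181), with -0.44 in the replicate 1 pair against -0.42 over replicates 2 and 3. The dimmest Col8a1 probe set, not tested, had 0.14, with 9.3 in wild type replicate 1 against 174.2 and 134.2 in the other wild type arrays. Col8a2, the partner chain, was not tested.

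Type VI collagen forms beaded filaments next to cells, from the chains Col6a1, Col6a2 and Col6a3. Col6a1 had 2146.2, 2280.1 and 2156.8 against 2630.7, 2237.2 and 1932.8. Col6a2 had 1987.8, 2029.4 and 2090.4 against 2400.3, 1747.2 and 1394.6. Col6a3 had 1460.9, 1444.0 and 1098.4 against 1387.2, 1344.8 and 1120.5. The genotypes overlapped in each, and the log2 differences were -0.04 (SE 0.174), 0.17 (SE 0.223) and 0.05 (SE 0.189). For Col6a1 and Col6a2 the wild type arrays spread more widely, with SDs of 350 and 510 against 74.4 and 51.6.

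The multiplexins Col15a1 and Col18a1 link basement membranes to the surrounding matrix, and Col18a1 is the source of endostatin. Col15a1 had 563.5, 968.6 and 983.6 against 899.4, 1043.3 and 846.4, with knockout replicate 1 alone low. Its log2 difference was -0.18 (SE 0.251). Col18a1 had 224.3, 183.8 and 131.3 against 177.7, 122.5 and 153.9, a difference of 0.21 (SE 0.233), with 0.43 for its other probe set. Both overlapped between the genotypes.

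Among chains that coat fibrils or resemble those that do, 3 were tested. Col12a1, Col14a1 and Col16a1 had log2 differences of 0.36 (SE 0.726), -0.04 (SE 0.191) and -0.12 (SE 0.298). Col12a1 ranged from 27.3 to 314.6 over the wild type arrays and from 71.6 to 268.3 over the knockout arrays, with the replicate 1 arrays the highest. The genotypes overlapped in all 3. Below the filter, other probe sets had 0.44 and -0.09 for Col14a1, and -0.25, 0.07 and -0.11 for Col12a1.

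The other 19 genes had every probe set below the filter, with signals from 1.0 to 248.7. They were Col2a1, Col11a1 and Col24a1 of the fibrillar class, Col6a4, Col6a5, Col7a1, Col8a2, Col10a1, Col13a1, Col17a1, Col19a1, Col20a1, Col22a1, Col23a1, Col25a1, Col26a1, and Col9a1, Col9a2 and Col9a3. Many are chains of cartilage, skin or nerve. Among all 46 collagen probe sets below the filter, 1 had all knockout arrays higher and 2 all lower, where 3.58% and 4.29% of all probe sets below it did. They were 1 of Col9a1, 1 of Col22a1 and the second of Col4a6, named after their values were seen. That of Col9a1, a cartilage chain, had all knockout arrays higher (91.7, 63.9 and 60.4 against 9.7, 13.3 and 49.3), and that of Col22a1 had all lower (9.4, 2.8 and 4.7 against 17.8, 17.1 and 12.1). The brighter Col22a1 probe sets and the other Col9a1 probe set overlapped between the genotypes. These values are at the dim end of the arrays, where the fit without the filter gave both an adjusted p of 1.

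Probe sets of 1 gene did not always tell the same. Of 11 genes with more than 1 tested probe set, 7 had all of them on the same side of 0, and in 4 (Col1a1, Col4a4, Col5a1 and Col5a2) the signs differed. The second Col1a1 probe set had 362.1, 190.7 and 192.7 against 488.3, 201.5 and 183.8, a log2 difference of -0.14 (SE 0.418), and -0.01 in replicates 2 and 3, where the brightest had 0.60. The higher value of Col1a1 in these arrays was thus seen with 1 of its 2 probe sets. The second probe set of Col3a1 had 0.07 (SE 0.262), with 0.37 in replicates 2 and 3, near the 0.39 of the brightest. The second of Col1a2 had 0.18, with 0.31, near the 0.32 of the brightest. Of Col5a1, 1 probe set had 0.64 (SE 0.613) through a signal of 32.9 in wild type replicate 1, against 193.6 to 252.7 in the other 5 arrays. Of the 36 tested probe sets, 1 had all knockout arrays above the wild type arrays and 2 had all below, where 3.64% and 3.66% of all tested probe sets did.

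For several chains the 2 batches lay farther apart than the genotypes. With genotype in the limma model, 6 of 23 genes (26.1%) were higher in the replicate 1 arrays at an adjusted p under 0.05, and 1 (4.35%) was lower, against 18.9% and 15.1% of all genes. Col12a1 rose there by a log2 value of 1.72 (adjusted p = 0.0276), Col4a6 by 1.41 (0.0202), Col5a1 by 0.86 (0.00989) and Col1a1 by 0.85 (0.0221). Col4a2 rose by 0.80 (0.0113) and Col5a3 by 0.48 (0.0386), while Col4a4 was at -0.80 (0.029). Col3a1 and Col5a2, at -0.03 and 0.07, did not pass. These values belong to the brightest probe sets. The second Col1a1 probe set rose too, by 1.05. The other tested probe sets had the opposite sign for Col5a1 (-0.24 and -1.30) and for Col4a4 (0.20 and 0.13). Col4a1 had 0.38 with its brightest probe set and -0.55 with its other. The part of this difference in the genotype values was not tested beyond the fits with the batch as a block and within each batch.

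**Figure D4:**
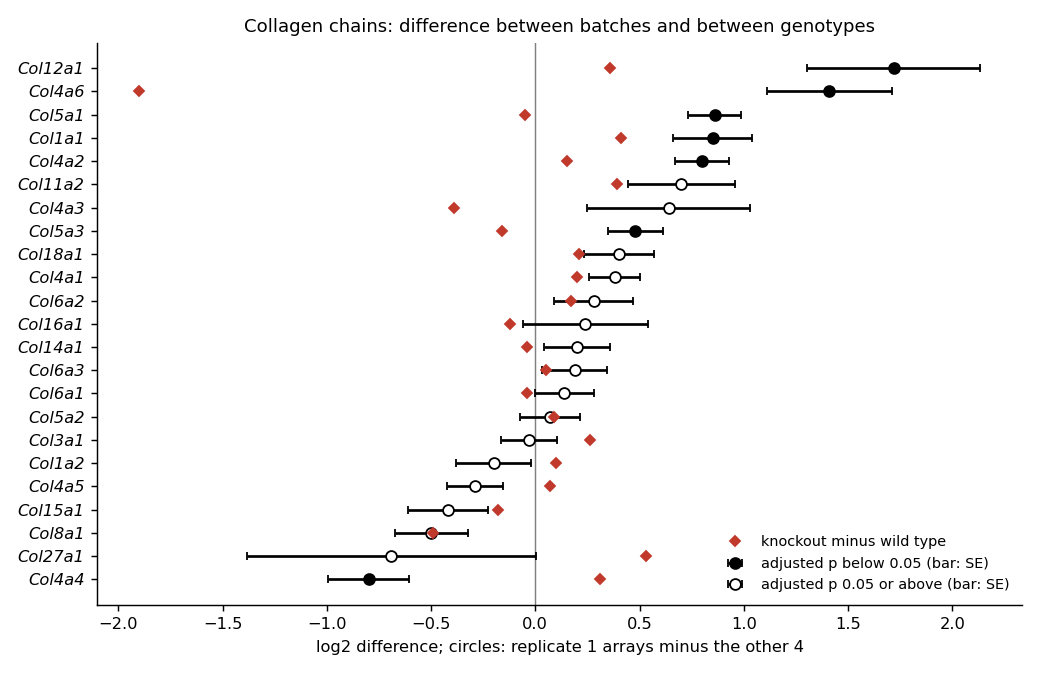
Log2 difference of the brightest probe set of each tested collagen gene between the replicate 1 arrays and the other 4 (circles with SE, filled where the limma adjusted p is under 0.05) and between knockout and wild type (diamonds). Of the 23 genes, 7 have filled circles, and Col4a6 is the only gene whose diamond lies beyond -1.

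Enzymes and proteins that make, cut, bind or sense collagen were set beside the chains. Over these 7 lists, 0 tested members had an adjusted p under 0.05 with or without a block. As background, 3.9% of all genes had all knockout arrays above the wild type arrays, and 3.56% had all below. Of 15 tested genes of chain folding and modification 8 were above 0 and 7 below (median 0.06). Plod2, a lysyl hydroxylase, had 0.22 (SE 0.162), Colgalt2, a collagen galactosyltransferase, 0.66 (SE 0.531), and Plod1 -0.22 (SE 0.178). Ppib, a prolyl isomerase of the endoplasmic reticulum, had -0.20 (SE 0.15), with all knockout arrays below the wild type arrays.

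Of 8 tested genes that cut propeptides or crosslink fibrils, 3 were above 0 and 5 below (median -0.04). Adamts3, a protease that removes the propeptides at the start of procollagen chains, had 193.4, 161.5 and 141.1 against 139.2, 118.6 and 116.1 (log2 0.35, SE 0.176), with no overlap. Loxl1, a crosslinking oxidase, had -0.16 (SE 0.156), Pcolce2, an enhancer of propeptide removal, -0.22 (SE 0.322), and Lox -0.12 (SE 0.269). Of 11 genes of collagen breakdown and its inhibitors, 6 were above 0 and 5 below (median 0.10). Timp2, an inhibitor of matrix metalloproteinases, had -0.20 (SE 0.151), with all knockout arrays below the wild type arrays. Mmp3 had 0.31 (SE 0.275), the protease Ctsk 0.24 (SE 0.231) and Mrc2, a receptor that takes up collagen, 0.21 (SE 0.231).

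Among 13 tested partners of fibrils, 8 were above 0 and 5 below (median 0.09). Thbs1, a matrix glycoprotein that binds collagen and activates TGF-beta, had 224.3, 150.9 and 124.2 against 313.0, 329.8 and 343.8, all knockout arrays below. Its log2 difference of -0.93 (SE 0.223) had an unadjusted limma p of 0.00434 and an adjusted p of 1, with -0.44 in the replicate 1 pair against -1.18 over replicates 2 and 3. Fn1, fibronectin, had 1104.0, 723.9 and 824.3 against 723.7, 531.7 and 611.3 (log2 0.48, SE 0.217). Its groups did not overlap, but the nearest arrays, at 723.9 and 723.7, were almost level. Postn had -0.21 (SE 0.176) and Prelp 0.17 (SE 0.178).

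The 13 tested partners in basement membranes kept close to 0, with 8 above and 5 below, a median of 0.10 and a range of -0.08 to 0.23. The laminin chains Lama2 and Lamb2 had 0.15 (SE 0.219) and 0.23 (SE 0.441), Nid2, a nidogen, 0.17 (SE 0.258), and Hspg2, perlecan, -0.08 (SE 0.153). Col4a6 at -1.90 lay outside that range, but it had low signals and passed the filter through the wild type alone, so the 2 are not alike. Of 5 tested collagen receptors 3 were above 0 and 2 below (median 0.06), with Ddr2, a receptor for fibrillar collagen, at 0.33 (SE 0.254), Ddr1 at 0.56 (SE 0.494), Lair1, a receptor on leukocytes, at -0.48 (SE 0.387), and Itgb1 at -0.10 (SE 0.303).

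Of 16 genes of TGF-beta signalling, the main inducer of collagen genes in fibroblasts, 8 were above 0 and 8 below (median 0.01). Ccn2, a matricellular target of TGF-beta, had 2017.7, 2107.3 and 1602.3 against 2014.2, 3399.1 and 3250.2, a log2 difference of -0.56 (SE 0.25) with 0.00 in the replicate 1 pair against -0.85 over replicates 2 and 3. Tgfb1 had -0.39 (SE 0.38), Tgfbr3 0.35 (SE 0.247) and Smad3 -0.17 (SE 0.179).

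**Figure D5:**
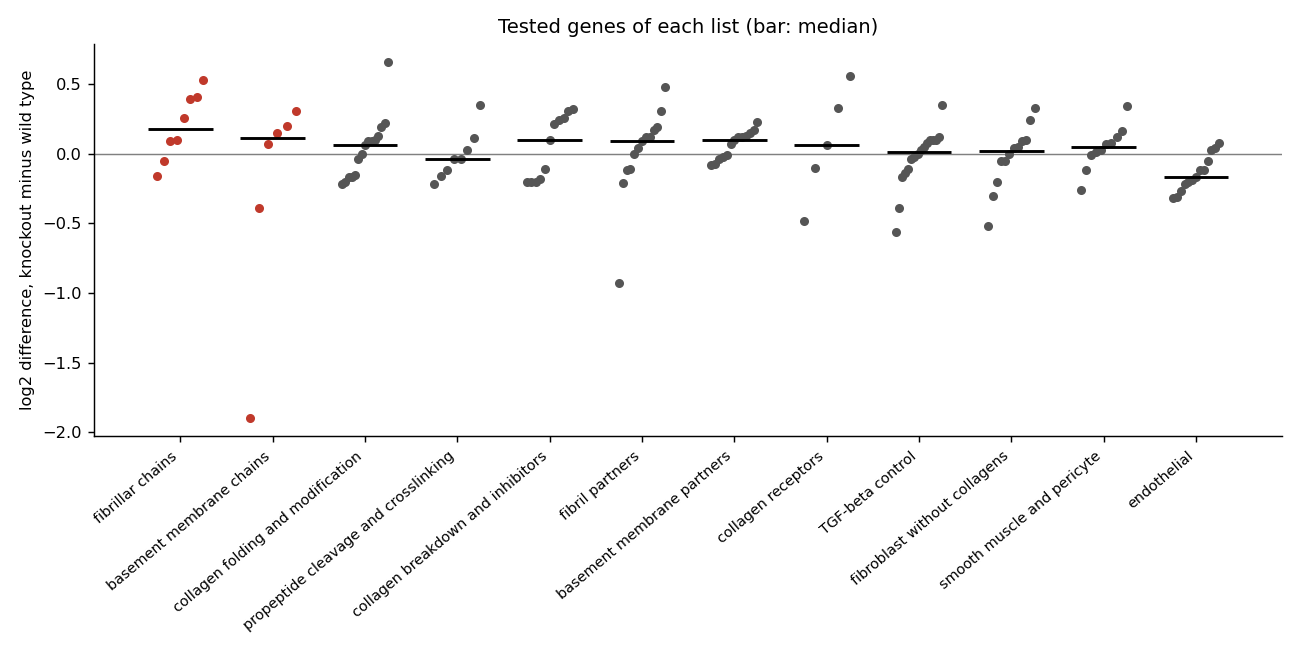
Log2 difference, knockout minus wild type, of the tested genes of the fibrillar and basement membrane chains, 7 lists of collagen-related genes and 3 lists of cell markers; each point is a gene and bars are medians. The medians lie between -0.17 and 0.18, and Col4a6 at -1.90 is the lowest point.

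Among markers of the cells that can make these chains, 0 had a limma adjusted p under 0.05. All 12 fibroblast markers other than collagens were tested, 6 above 0 and 6 below, with a median of 0.02. Their summed signal was 66949.9 to 101235.1 over the knockout arrays and 71256.4 to 98874.5 over the wild type arrays, with the replicate 1 arrays lowest in each. Fbln1 had 0.24 (SE 0.149) with all knockout arrays higher, and Mfap5 -0.30 (SE 0.165) with all lower. Decorin, lumican, dermatopontin and Ddr2 stand in this list and in those above.

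Smooth muscle and pericyte markers, beside Col4a6 and Col8a1, had 10 tested members of 11, 7 above 0 and 3 below, with a median of 0.05. Their sums were 48513.7 to 49939.3 in the knockout and 46305.0 to 51333.5 in the wild type. Endothelial markers, beside Col4a1 and Col4a2, were below 0 in 10 of 13 (median -0.17), and in 5 all knockout arrays were below the wild type arrays, among them Vwf at -0.32 (SE 0.165), where 3.56% of all genes had that order. Their sums were 90322.6 to 96519.5 and 89936.1 to 101156.5. Most of each sum came from Fabp4 and Cd36, with knockout means of 38222 and 29044.8 and wild type means of 37169.2 and 27584.3. Both had values above 0 (0.04 and 0.08), so the endothelial sums mainly follow these genes and not the markers below 0. All 8 tested macrophage markers were below 0 (median -0.18), with sums of 13947.4 to 27525.0 and 18814.0 to 28412.8. Of the 6 epicardial markers only Tbx18 passed the filter, and of the valve and cartilage markers 4 did, 2 above 0 and 2 below. These were Cnmd at 0.37 (SE 0.176), Comp at 0.02 (SE 0.837), Prg4 at -0.26 (SE 0.242) and Sox9 at -0.34 (SE 0.262). The part of these markers in the collagen values was not tested.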

How the data were processed

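Left ventricle RNA of 3 akt2-/- and 3 wild type samples was measured on 1 Affymetrix array each. Each deposited column holds linear intensities of 45101 probe sets, which the authors computed with MAS5 per the submitters' processing notes, its version not given in the sources used here. In each column, the mean signal without the outer 2% at each end was 500 on every array, so each had been scaled by 1 factor, and that scaling was kept.

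Control probe sets, 64 in all, entered no test. Names came from the platform's annotation (34945 with 1 gene symbol, 932 with several, left out of the gene test, and 9160 unnamed here). All 42 collagen symbols matched the RefSeq gene table. The scale was log2(signal + 21.7), with the 20th percentile of the table as pseudocount. The 22519 probe sets with a mean at or above the median, 6.868, and the brightest of each of 11075 genes were fitted in R 4.3.3 by limma 3.58.1 (lmFit, then eBayes, no covariate, Benjamini-Hochberg over all tested features). With 3 arrays a genotype, their number limits the precision.

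The labels number the samples 1 to 3. After each genotype's mean was taken off, arrays sharing a number correlated at 0.61, 0.45 and 0.39 over the tested probe sets, while the unlike numbers 2 and 3 gave 0.44 and 0.36. The numbers come from the labels, which do not say what they stand for, and the correlations set replicate 1 apart without telling 2 from 3. A block for the number was run beside the other fits, and pairing by number was treated as possible.

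The collagen members, the classes and the gene lists were chosen with earlier results of these data known. The genes named by rule are all tested collagen chains, Akt2, and up to 4 members of each related list by lowest unadjusted p. Col9a1, Col22a1 and the markers named singly were picked after their values were seen. Alternatives were other pseudocounts, filters, scalings, variance estimates, blocks and gene summaries, replicates 2 and 3 alone, and leaving out each array.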

Additional observations from a re-analysis of the deposited data

How the results depend on the processing

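Under all 18 alternatives, 0 collagen genes and 0 collagen probe sets had a limma adjusted p under 0.05. This covers pseudocounts of 1 and 100, no filter and a filter at the 75th percentile, quantile normalization, median centring, trended and robust variance, both blocks, the mean of probe sets, replicates 2 and 3 alone, and each array left out. With the replicate block the pairing changed no call, at 0 genes and 0 probe sets. The lowest adjusted p of a collagen gene was 0.154, for Col4a6 with the batch block and the trended, robust variance. Its log2 difference ran from -2.47 (pseudocount 1) to -1.15 (pseudocount 100).

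The median over all collagen genes moved from 0.09 to -0.04 without the filter, where 42 genes entered, 18 above 0 and 24 below. Without it the median of all genes moved from 0.015 to -0.008. Above 0 were then 42.9% of the collagen genes and 48.7% of all genes. Median centring moved the median of all genes from 0.015 to 0.107. It put 17 of 23 collagen genes (73.9%) and 70.4% of all genes above 0, against 60.9% and 53.3% without it. Leaving out each array, the medians of log2 differences ran from -0.01 to 0.15 for all chains, 0.11 to 0.25 for fibrillar and -0.02 to 0.18 for type IV chains. The fibrillar median was 0.09 without the filter and 0.10 with the stricter one, below type IV at 0.11 and 0.15. With an array left out, the batches no longer weigh equally in both genotypes.

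Of 23 genes, 9 kept their sign under all alternatives that tested them: Col1a1, Col3a1, Col4a1, Col4a6, Col5a2, Col5a3, Col8a1, Col11a2 and Col18a1. In 32 of 404 values the sign was turned, with no call in any. With median centring Col14a1 had 0.05, Col5a1 0.04 and Col6a1 0.06, from -0.04, -0.05 and -0.04, by a shift that centring gives every gene alike. With replicates 2 and 3 alone Col14a1 had 0.07, Col15a1 0.05, Col16a1 0.27, Col27a1 -0.44, Col5a1 0.05 and Col6a1 0.09. With the mean of probe sets Col4a4 had -0.07 and Col5a1 0.14. Leaving out 1 array, the ranges were -0.31 to 1.08 for Col12a1, -0.15 to 0.08 for Col14a1, -0.32 to 0.07 for Col15a1, -0.37 to 0.15 for Col16a1 and -0.02 to 0.28 for Col1a2. They were -0.18 to 0.98 for Col27a1, -0.09 to 0.45 for Col4a2, -0.80 to 0.10 for Col4a3, -0.04 to 0.18 for Col4a5 and -0.29 to 0.28 for Col5a1. For Col6a1, Col6a2 and Col6a3 they were -0.14 to 0.08, -0.01 to 0.38 and -0.04 to 0.18. Apart from that shift, the cause was not tested.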
